A study of Mus musculus with 6 samples.

Results

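The 139 genes described here are the protein-coding genes of the mouse whose symbol is Zfp followed by a number and whose mean over all 6 libraries was at least 5 FPKM, a read number scaled to gene length and to the library total. Zfp36, whose CCCH fingers bind RNA, was left out by the rule. They came from 369 genes with such a symbol and from 55850 gene rows in all. The members were thus selected on their level, with the mean FPKM of the same 6 libraries that are compared below, taken without regard to group, and the rule used no difference between groups. Of the 369 genes, 230 lay below the floor, and 3 were listed at 0 in every library. RNA of whole mouse testis was sequenced from 3 libraries with a conditional knockout (cKO) of SRSF2, a splicing factor of the serine and arginine rich family, and from 3 wild type (WT) libraries, none of them treated. By the title of the series SRSF2 is lost in Sertoli cells, which support germ cells inside the seminiferous tubules. The sources used here give neither the Cre driver nor the age of the mice. They do not tie libraries to separate animals either, and each p-value therefore reflects only the scatter among these libraries, part or all of which could be technical.

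Zfp genes mostly encode proteins with tandem C2H2 zinc fingers, small folds in which a pair of cysteines and a pair of histidines hold a zinc ion and neighbouring residues read a few bases of DNA. The largest subclass adds a KRAB domain, which binds the co-repressor TRIM28 and through it the histone methyltransferase SETDB1, and many of these proteins silence endogenous retroviruses or protect imprinted genes. KRAB zinc finger genes arose by repeated tandem duplication and lie in clusters, whereas most members without KRAB are older and include developmental regulators, partners of chromatin enzymes and a few proteins that act on RNA or ribosomes.

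The repeated unit that gives the family its name differs in base composition between members. The results below use the G or C content of the longest transcript, and the units of a few members are shown as examples of how the sequences differ. One finger-coding unit of 84 bases, from the first cysteine codon through the linker to the next finger, is shown for each of 6 members, 3 that were higher and 3 that were lower in every cKO library than in every WT library. Each is written 5′ to 3′ on the coding strand of GRCm38, from the GENCODE M21 transcript, with the codons of the zinc-binding cysteines and histidines in capitals.
Zfp597: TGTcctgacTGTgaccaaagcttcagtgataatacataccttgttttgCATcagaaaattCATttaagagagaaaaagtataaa
Zfp952: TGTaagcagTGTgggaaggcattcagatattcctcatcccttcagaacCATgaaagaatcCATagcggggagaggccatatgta
Zfp970: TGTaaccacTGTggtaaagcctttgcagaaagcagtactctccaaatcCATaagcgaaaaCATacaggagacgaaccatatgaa
Zfp579: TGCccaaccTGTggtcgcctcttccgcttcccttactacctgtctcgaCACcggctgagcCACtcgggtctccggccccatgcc
Zfp787: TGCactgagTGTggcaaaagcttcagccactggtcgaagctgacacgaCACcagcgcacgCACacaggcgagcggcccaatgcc
Zfp444: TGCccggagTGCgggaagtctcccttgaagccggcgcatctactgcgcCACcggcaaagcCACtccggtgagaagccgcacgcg

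The units of Zfp597 (chr16:3866339-3866422, minus strand), Zfp952 (chr17:33003305-33003388, plus strand) and Zfp970 (chr2:177475031-177475114, plus strand) held 32.1%, 46.4% and 41.7% G or C. Those of Zfp579 (chr7:4994686-4994769, minus strand), Zfp787 (chr7:6132966-6133049, minus strand) and Zfp444 (chr7:6189546-6189629, plus strand) held 65.5%, 61.9% and 67.9%. The histidine codons are all CAT in the first 3 units and all CAC in the other 3, which describes these examples and not the other units or members. Of the 28 codons, 9, 14 and 8 ended in G or C in the 3 higher members and 20, 21 and 23 in the 3 lower ones. Over the whole coding sequence the G or C content was 44.2%, 43.3% and 40.9% in the higher members, against 68.5%, 65.6% and 68.0% in the lower ones. In the longest transcript, the measure used below, it was 40.2%, 42.5% and 40.8%, against 63.8%, 47.0% and 52.0%. The 6 members were picked by direction as examples and do not stand for the other members.

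The libraries held 16185976 to 17281330 reads in cKO and 16070287 to 16479907 in WT, recovered from the FPKM values, and a member had a median of 807 reads per library (146 to 5017). Srsf2 itself had 74.0, 87.3 and 87.3 FPKM in cKO libraries and 127, 96.7 and 102 FPKM in WT libraries. That is a log2 difference of -0.38 with a standard error (SE) of 0.15, a limma adjusted p of 0.384 and an exact two-sided permutation p of 0.1, the smallest that 3 against 3 libraries allow, and its exons overlap Mettl23 and Mfsd11 on the other strand. All 10 Sertoli cell markers averaged lower in cKO (summed levels of 1092 to 1278 FPKM in cKO libraries and 1545 to 2066 in WT libraries). All 9 tested germ cell markers averaged higher (198 to 289 FPKM in cKO libraries and 142 to 249 in WT libraries). None of these markers passed the adjusted threshold, and their part in the values below was not tested. Only 1 of 6 spermatid markers reached a mean of 1 FPKM. In whole testis, fewer cells of a type and less RNA per cell cannot be told apart. Reads on 18S ribosomal RNA made up 0.727% to 0.835% of cKO libraries and 1.58% to 2.09% of WT libraries, and mitochondrial reads 2.39% to 2.97% of cKO libraries and 1.66% to 1.98% of WT libraries. All 4 red blood cell genes averaged higher in cKO (median log2 difference 0.64) and all 4 endothelial genes lower (-0.21), none of them called. The part of these differences in the values below was not tested.

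The members were genes of moderate level. Their median over genes was 8.55 FPKM, 56 reached 10 FPKM and 14 reached 20. Zfp362 had the highest mean, with 49.3, 34.9 and 41.8 FPKM in cKO libraries, against 43.1, 56.0 and 57.8 FPKM in WT libraries. Next in mean level came Zfp771, Zfp207 (BuGZ, a spindle assembly factor that stabilises the checkpoint protein BUB3), Zfp395, Zfp146, Zfp706, Zfp740 and Zfp422. The cKO and WT values of all 8 overlapped. Zfp207 had 34.3, 42.8 and 41.2 FPKM in cKO libraries and 35.6, 32.3 and 33.1 FPKM in WT libraries, and Zfp146, which consists almost wholly of fingers, had 30.5, 31.9 and 34.6 FPKM in cKO libraries and 31.2, 32.0 and 34.3 FPKM in WT libraries. At the floor, Zfp707, Zfp959 and Zfp189 lay just inside, with means of 4.57 to 6.04 FPKM in cKO libraries and 4.33 to 5.62 FPKM in WT libraries. Zfp157, Zfp329 and Zfp933 lay just outside, with 5.10 to 5.71 FPKM in cKO libraries and 4.22 to 4.82 FPKM in WT libraries.

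No Zfp member passed the adjusted threshold between cKO and WT testes in either direction. The lowest adjusted p of a member was 0.325 (limma, Benjamini-Hochberg over 14238 tested genes), and over all those genes 0.00702% were called higher and 0.00702% lower. At an unadjusted p under 0.05, 16 members were higher and 10 lower in cKO, beside 4.65% and 7.68% of all tested genes. In 21 members all 3 cKO libraries lay above all 3 WT libraries and in 13 all lay below, where 8.69% and 9.92% of all tested genes did so, and in the other 105 the groups overlapped. The log2 difference, cKO minus WT on the log2(FPKM + 1) scale, was above 0 in 83 members and below 0 in 56, with a median of 0.10 against 0.00 over all tested genes. It ran from -0.61 to 0.52, or 61.9% to 154% of the WT mean, with a median SE of 0.14. In 5 members the difference was 0.5 or more in size. These counts rest on single libraries. At an unadjusted p under 0.05, 28 members were higher and 16 lower with cKO replicate 1 left out, 5 and 5 with cKO replicate 2 left out, and 3 and 5 with cKO replicate 3 left out. Without WT replicate 1 they were 11 and 17, and the median of the members was -0.03. Without WT replicate 3 they were 9 and 4. The shares of all tested genes at that p moved too, to 7.43% higher and 9.44% lower with cKO replicate 1 left out, 1.65% and 3.72% with cKO replicate 2 left out, and 1.87% and 3.35% with cKO replicate 3 left out. They were 5.58% and 7.58% without WT replicate 1 and 3.30% and 4.39% without WT replicate 3.

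Among members lower in cKO, Zfp579 (ENSMUSG00000051550, chr7:4983483-4996158), a C2H2 gene with 8 finger patterns, had the lowest p. It had 6.45, 6.28 and 6.64 FPKM in cKO libraries, against 10.4, 9.27 and 11.6 FPKM in WT libraries. The groups lay well apart, with a log2 difference of -0.61 (SE 0.11, limma adjusted p 0.325). Zfp787 (chr7:6131491-6155997), with 7 finger patterns, had 5.55, 4.22 and 4.37 FPKM in cKO libraries, against 7.66, 7.04 and 7.65 FPKM in WT libraries, a log2 difference of -0.57 (SE 0.13, limma adjusted p 0.36). Zfp503 (chr14:21983959-21989601), a repressor of the developing limb and striatum that lacks the finger pattern, had 20.2, 14.3 and 15.4 FPKM in cKO libraries, against 25.2, 23.6 and 24.9 FPKM in WT libraries. Its WT libraries were close together and cKO replicate 1 was the nearest to them, for a log2 difference of -0.55 (SE 0.14, limma adjusted p 0.361). Zfp444 had 6.66, 5.47 and 5.18 FPKM in cKO libraries, against 9.05, 6.94 and 9.55 FPKM in WT libraries, so that WT replicate 2 lay just above the highest cKO library. Zfp513, whose human counterpart is needed in the retina, had 9.53, 9.92 and 9.33 FPKM in cKO libraries, against 11.4, 12.4 and 14.5 FPKM in WT libraries. Zfp219, a partner of SOX9 in cartilage, had 23.6, 18.2 and 17.7 FPKM in cKO libraries, against 24.4, 23.7 and 26.03 FPKM in WT libraries. The gap between the groups of Zfp219 was small beside the spread of its cKO libraries. The remaining 4 of the 10 non-overlapping lower members with the lowest p were Zfp580, Zfp61, Zfp553 and Zfp692, with log2 differences of -0.42 to -0.24 and limma adjusted p of 0.38 to 0.427. Exons of Zfp219, Zfp513 and Zfp553 overlap genes on the other strand, and since the use of strand in counting is not given, reads of the partners cannot be told apart.

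Among members higher in cKO, Zfp654 (chr16:64780347-64851652) had the largest log2 difference, 0.52 (SE 0.15, limma adjusted p 0.372). Its libraries had 6.01, 8.59 and 8.81 FPKM in cKO and 4.72, 4.90 and 5.56 FPKM in WT, so that cKO replicate 1 lay near the WT libraries. Zfp597 (chr16:3858321-3884561), whose human counterpart is imprinted, had 6.31, 6.77 and 6.38 FPKM in cKO libraries, against 4.94, 5.11 and 5.04 FPKM in WT libraries. Both groups were tight, 0.31 apart on the log2 scale (SE 0.10, limma adjusted p 0.379). Its exons overlap those of Gm26675, a lincRNA on the other strand, and 22.6% of its 50-base words recur in other genes, so the value is uncertain. Zfp185, which despite its symbol encodes a LIM-domain protein of the actin cytoskeleton and holds no C2H2 pattern, had 9.50, 11.1 and 9.60 FPKM in cKO libraries, against 8.53, 7.13 and 7.16 FPKM in WT libraries. Zfp952 (chr17:32993129-33005457), a KRAB gene, had 6.06, 5.73 and 6.55 FPKM in cKO libraries, against 4.74, 4.58 and 4.79 FPKM in WT libraries. Its groups did not overlap and its log2 difference was 0.32 (SE 0.11, limma adjusted p 0.379). Zfp292 had 10.6, 11.02 and 14.5 FPKM in cKO libraries, against 6.76, 9.60 and 9.32 FPKM in WT libraries. Its range was set by cKO replicate 3 at the top and WT replicate 1 at the bottom. Zfp638 (NP220), which recruits a silencing complex to unintegrated retroviral DNA, had 9.07, 9.77 and 10.8 FPKM in cKO libraries, against 8.18, 8.12 and 7.41 FPKM in WT libraries. Zfp970, Zfp449, Zfp948 and Zfp667 completed the 10, with log2 differences of 0.31 to 0.41 and limma adjusted p of 0.379 to 0.384. Of the 50-base words of the Zfp970 transcript, 52.2% also occur in other genes, and how the authors' counting divided such reads is not given, so its value is uncertain. Among the 139 members, 22 shared over 10% of their words with other genes, and 42 shared exon bases with another annotated gene.

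**Figure D1:**
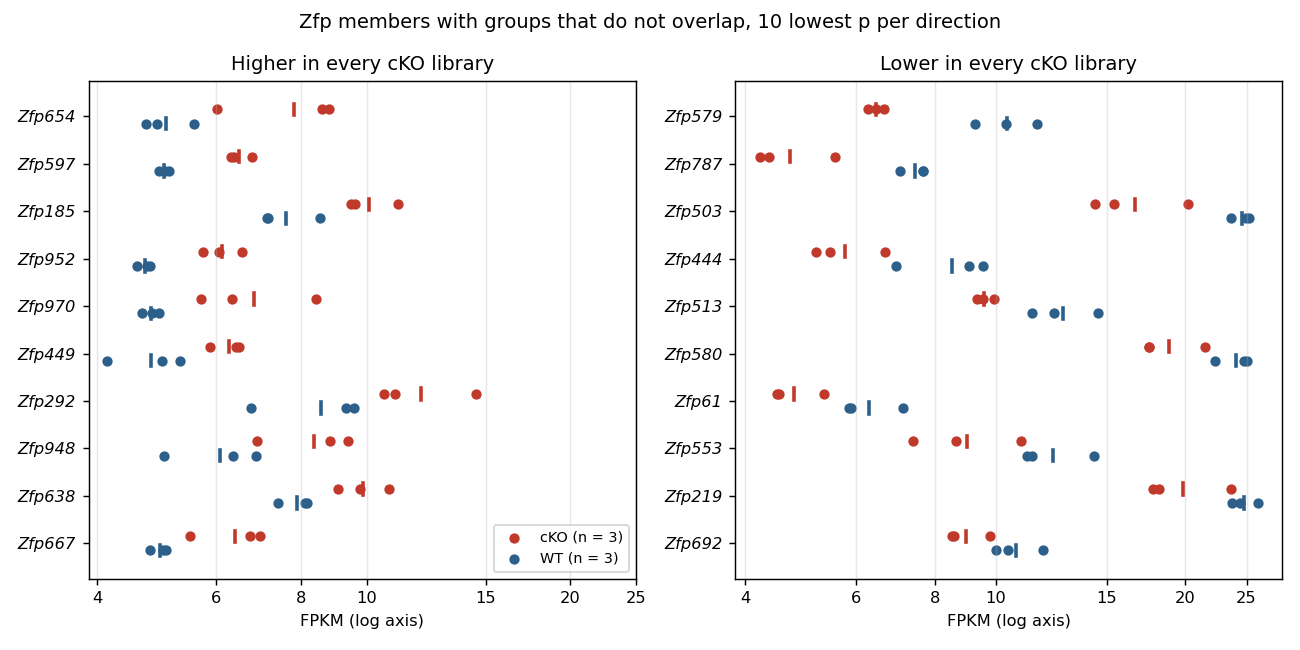
FPKM on a log axis of the 10 higher and the 10 lower members with the lowest unadjusted p among those whose groups do not overlap (points are libraries, cKO red and WT blue, 3 each; bars are group means). The gap between groups is widest for Zfp579, and the nearest libraries of the 2 groups almost touch for Zfp948 and Zfp219.

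With all 6 libraries as deposited, the KRAB members leaned upward and the others did not. A KRAB box pattern was found in the translated coding sequence of 42 members, and 35 of them had a log2 difference above 0, with a median of 0.21. Of the 97 members without the pattern 48 were above 0, with a median of -0.00. At an unadjusted p under 0.05, 5 of the 42 KRAB members were higher and 1 lower, and 11 of the 97 others were higher and 9 lower, where 4.65% and 7.68% of all tested genes were. The KRAB counts were 14 and 3 with cKO replicate 1 left out, beside 7.43% and 9.44% of all tested genes. With cKO replicate 2 left out they were 1 and 0, beside 1.65% and 3.72%. With cKO replicate 3 left out they were 0 and 0, beside 1.87% and 3.35%. Without WT replicates 1, 2 and 3 in turn they were 6 and 1, 3 and 2, and 4 and 0. The all-gene shares were then 5.58% and 7.58%, 4.53% and 10.3%, and 3.30% and 4.39%. With WT replicate 1 left out, the KRAB median was 0.11 and that of the others -0.10, with 33 of the 97 above 0. With WT replicate 3 left out, the medians were 0.23 and 0.06, and 58 of the 97 were above 0. KRAB members also had lower levels (median 6.71 FPKM, against 10.2 FPKM without the pattern), more finger patterns (median 12 against 7) and a lower G or C content of the transcript (median 43.4% against 50.03%). The pattern was found in 203 of 368 Zfp genes with a coding sequence and in 0 of 61 Zbtb and Zc3h genes, which lack the domain. It misses degenerate boxes, such as that of Zfp57, so the class without it is not free of KRAB genes. Finger patterns numbered 0 to 34 per member, with 5 members at 0, 23 at 1 to 3 and 60 at 10 or more.

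The direction of a member followed its G or C content. The members were split into 3 classes of nearly equal size by transcript G or C content. All 47 members of the low class (36.9% to 43.6%) had a log2 difference above 0, with a median of 0.25, and 14 of them had an unadjusted p under 0.05. In the middle class (43.6% to 51.7%) 28 of 46 were above 0, with a median of 0.06. In the high class (51.9% to 68.7%) 38 of 46 were below 0, with a median of -0.18, and 9 had an unadjusted p under 0.05, all lower. Spearman's rho between the log2 difference and the G or C content was -0.81 over the 139 members, -0.71 over the 42 KRAB members and -0.76 over the other 97. These values describe genes measured in the same 6 libraries, which are not independent replicates. The tested genes in general ran the same way, with a rho of -0.61 over 13945 genes with a known content. The low class held 24 of the 42 KRAB members. Of the 2404 tested genes in the G or C range of the low class, 86.4% were above 0, with a median of 0.20, and 15.5% were higher at an unadjusted p under 0.05. Of the 5447 in the range of the high class 21.4% were above 0, with a median of -0.15, and 16.2% were lower at that p.

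**Figure D2:**
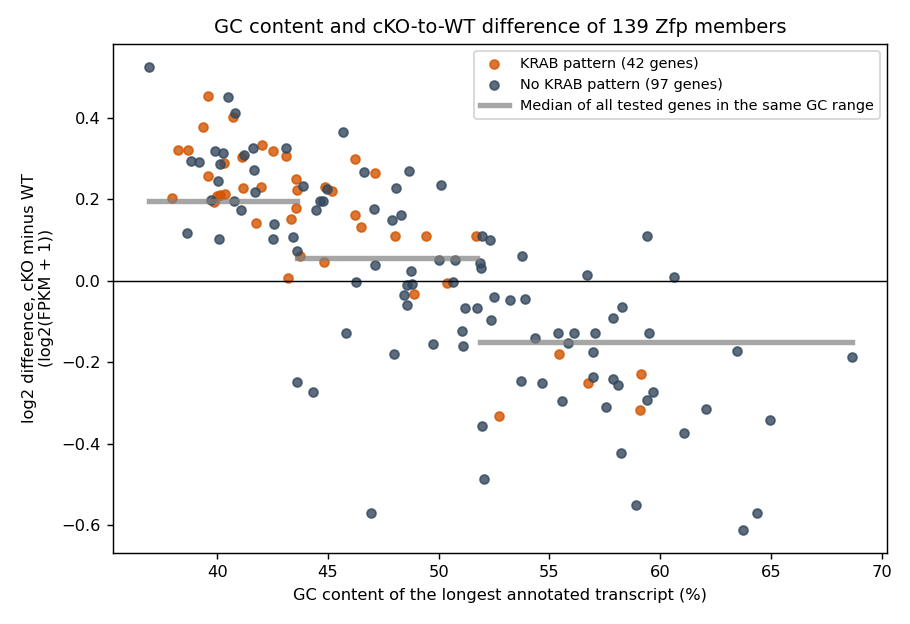
Log2 difference, cKO minus WT, of each of the 139 members against the G or C content of its longest annotated transcript (orange, KRAB pattern; dark, no pattern), with grey bars at the median of all tested genes over the G or C range of each class of members. All 47 members of the low class lie above 0 and 38 of the 46 of the high class lie below it, beside all-gene medians of 0.20, 0.06 and -0.15.

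Once smooth trends on gene length and G or C content, fitted over all tested genes in each library, were taken out, the median of the members was 0.01, with 74 above 0. None was called, beside 0.0143% of all tested genes called higher and 0.00717% called lower. At an unadjusted p under 0.05, 2 members were then higher and 7 lower, beside 3.08% and 5.42% of all tested genes. In 8 members every cKO library lay above every WT library and in 12 every one lay below, beside 6.14% and 8.77%. The medians of the KRAB members and of the others became 0.06 and 0.00, with 25 of 42 KRAB members above 0. The medians of the low, middle and high G or C classes became 0.05, 0.02 and -0.01, and rho with G or C content became -0.24. The 9 members then under 0.05 were Zfp787, Zfp503, Zfp444, Zfp61, Zfp579 and, outside the rule for naming genes and chosen after their values were seen, Zfp523 and Zfp821, all lower, and Zfp185 and, likewise outside the rule, Zfp825, both higher. Zfp787 stood out in size, with a log2 difference of -0.65 after the trends were taken out (limma adjusted p 0.383). The G or C content of its longest transcript, 47.0%, is far from the 65.6% of its coding sequence, so that the trend taken out for it depends on which transcript is used. Zfp580, at -0.34 as deposited, was at 0.02 after the trends were taken out, and Zfp597 was at 0.10. Zfp219, Zfp513 and Zfp692, at -0.31, -0.37 and -0.24 as deposited, were then at -0.06, -0.10 and -0.01. Zfp638, at 0.29 as deposited, was at 0.04, and Zfp654 and Zfp292, at 0.52 and 0.45 as deposited, were at 0.23 and 0.22.

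The 6 libraries differed from each other in these trends more than the group labels alone convey. Each library's deviation from the mean of the 6 had, over the 139 members, a rho with G or C content of 0.26, -0.80 and -0.77 in cKO replicates 1, 2 and 3 and of 0.26, 0.62 and 0.72 in WT replicates 1, 2 and 3. cKO replicate 1 thus lay on the side of the WT libraries, and over all tested genes its rho, 0.17, also had the sign of those of WT. The score of the KRAB members, their mean deviation in log2 units, was -0.05, 0.11 and 0.17 in cKO libraries, against -0.17, -0.07 and -0.00 in WT libraries. That of the members without the pattern was 0.01, -0.05 and 0.03 in cKO libraries, against -0.12, 0.05 and 0.08 in WT libraries. The KRAB score of cKO replicate 1 was thus below that of WT replicate 3, and in the class without KRAB the groups overlapped. In the low class of G or C content the groups did not overlap, with scores of -0.04, 0.18 and 0.24 in cKO libraries and -0.20, -0.12 and -0.06 in WT libraries. In the high class the scores were 0.03, -0.21 and -0.12 in cKO libraries and -0.05, 0.14 and 0.20 in WT libraries, and the groups overlapped through replicate 1 of each.

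WT replicate 1 had the lowest score both of the KRAB members and of the members without the pattern. Members took 0.850%, 0.837% and 0.898% of the reads in cKO libraries and 0.722%, 0.873% and 0.859% in WT libraries. Of the 139 members, 66 had their lowest value in WT replicate 1, and these had a median length of 6326.5 bases, against 4176 bases for the other 73. The rho of the deviation with gene length was -0.52 in that library over the members and -0.48 over all tested genes. After the length and G or C trends were taken out, the score of all members was still lowest there, at -0.10, beside 0.02 and 0.06 in WT replicates 2 and 3 and -0.01, -0.01 and 0.04 in the cKO libraries. At the other end, 49 members had their highest value in cKO replicate 3 and 32 in WT replicate 3.

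**Figure D3:**
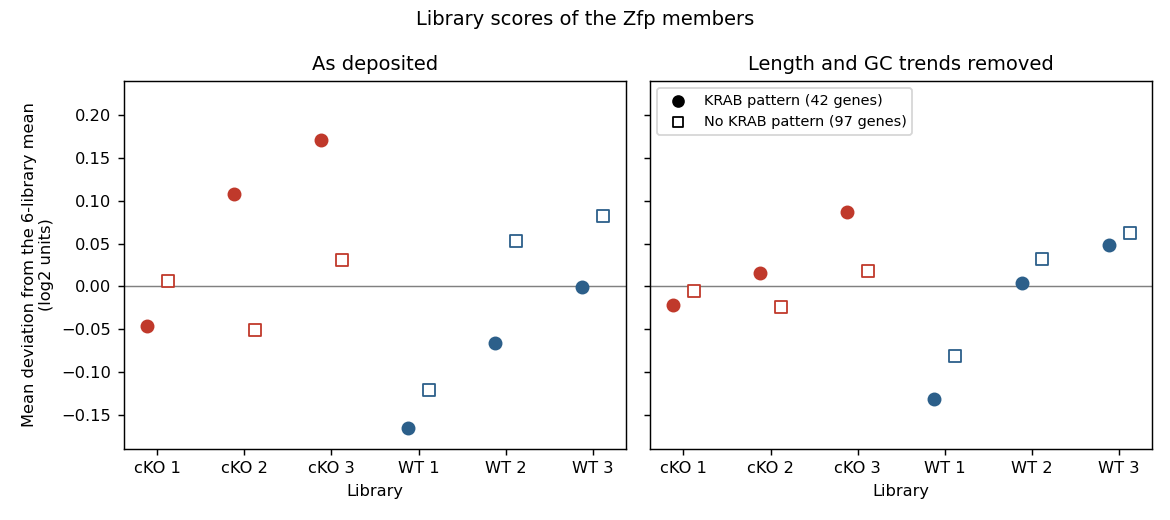
Mean deviation of the Zfp members from their mean over the 6 libraries, per library in log2 units (circles, 42 KRAB members; open squares, 97 others; cKO red, WT blue), as deposited on the left and after length and G or C trends were taken out on the right. The KRAB score of cKO replicates 2 and 3 lies above the others as deposited, at 0.11 and 0.17, and after the trends were taken out they are at 0.02 and 0.09, with WT replicate 3 between them at 0.05, and WT replicate 1 is lowest in both panels.

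Neighbouring members mostly lay on the same side of 0 as deposited, but not after the length and G or C trends were taken out. Runs of at least 3 members with gaps of at most 500 kb numbered 11 and held 41 members, 18 of them with KRAB, and in 9 runs all members lay on one side of 0, 4 above and 5 below, though Zfp41 and Zfp646, close to 0 in 2 of the lower runs, turned above 0 on the TPM scale. On chromosome 17 (chr17:32765496-33033402) the KRAB genes Zfp871, Zfp799, Zfp952 and Zfp763 were all above 0, at a median of 0.24 and a median transcript G or C content of 41.0%. The 3 members of a chromosome 9 run (chr9:20428449-20521417), Zfp26, Zfp426 and Zfp266, all with KRAB, were above 0 at a median of 0.25 and a content of 40.3%. On chromosome 7, Zfp628, Zfp579, Zfp865 and Zfp580 (chr7:4915217-5053723), none with the KRAB pattern, were all below 0, at a median of -0.29 and a content of 63.6%. The 5 members from Zfp553 to Zfp646 (chr7:127233061-127885996) were below 0 at a median of -0.25 and 58.2%, and the 5 from Zfp282 to Zfp467 (chr6:47877204-48445825) at -0.18 and 56.1%. In the run of Zfp787, Zfp444 and Zfp667 (chr7:6131491-6307883) the KRAB gene Zfp667 was above 0, at 0.31, beside its 2 neighbours at -0.57 and -0.49. Zfp667 had 5.48, 6.97 and 6.73 FPKM in cKO libraries, against 5.06, 4.79 and 5.004 FPKM in WT libraries. After the trends were taken out, the medians of the runs on chromosomes 17, 7 (from Zfp628) and 6 were 0.06, -0.04 and -0.01, while that of Zfp180, Zfp61 and Zfp428 on chromosome 7 (chr7:24081924-24515682) was -0.22, against -0.33 as deposited. That of Zfp787, Zfp444 and Zfp667 was -0.45, against -0.49 as deposited. With the trends taken out, all members shared a side of 0 only in the runs from Zfp41 to Zfp707 on chromosome 15 and from Zfp180 to Zfp428. Both of these runs lay below 0, and every other run then held members on both sides. Of chromosomes with at least 5 members, medians ran from -0.12 on chromosome 15 (7 members) to 0.23 on chromosome 17 (15 members), and chromosome 7, which held the most members, 29, had 12 above and 17 below 0.

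**Figure D4:**
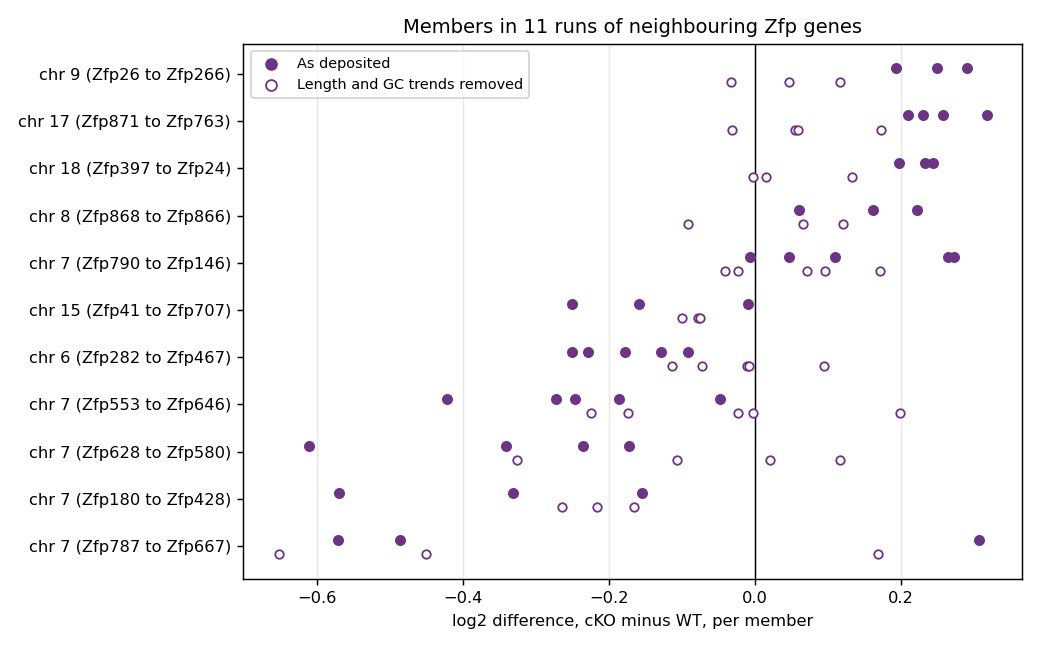
Log2 difference, cKO minus WT, of the 41 members in 11 runs of neighbouring Zfp genes, 1 row per run, named by chromosome and by first and last member (filled, as deposited; open, after length and G or C trends were taken out). Filled points of a run share a side of 0 in 9 runs, and open points do so only in the runs from Zfp41 to Zfp707 and from Zfp180 to Zfp428. The open points of the chromosome 17 run have a median of 0.06, against 0.24 for its filled points.

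Members with known retroviral or imprinted targets were a list of 8, of which 6 were tested and 4 are members. Of the 6, 5 were above 0, with a median of 0.24, and none was called. At an unadjusted p under 0.05, 2 of the 6 were higher, beside 4.65% of all tested genes. These 2, Zfp932 and Zfp979, are not members. Zfp568, which silences a placental promoter of Igf2, had 11.7, 9.78 and 10.8 FPKM in cKO libraries, against 6.34, 11.2 and 9.37 FPKM in WT libraries. Its groups overlapped, with WT replicate 1 the lowest library and WT replicate 2 within the cKO range. Zfp809, which silences murine leukaemia virus, had 4.85, 5.96 and 6.46 FPKM in cKO libraries, against 3.95, 5.35 and 5.10 FPKM in WT libraries. Zfp57 and Zfp445, which keep DNA methylation at imprinted regions, are named outside the rule for their role. Zfp57 had 12.5, 10.6 and 15.3 FPKM in cKO libraries, against 11.97, 14.4 and 15.6 FPKM in WT libraries, and Zfp445 had 16.8, 17.6 and 21.6 FPKM in cKO libraries, against 11.9996, 18.4 and 20.5 FPKM in WT libraries. The groups of both overlapped. Zfp932 and Zfp979, KRAB genes below the floor, had means of 4.57 and 4.69 FPKM in cKO libraries, against 3.43 and 2.70 FPKM in WT libraries, with log2 differences of 0.33 and 0.62 and limma adjusted p of 0.381 and 0.379. Their transcripts held 37.3% and 34.6% G or C. After the length and G or C trends were taken out, their log2 differences were 0.08 and 0.28.

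The co-repressor and heterochromatin machinery with which KRAB proteins work was near 0 as a list. Of 30 tested genes 13 were above and 17 below 0, with a median of -0.02. At an unadjusted p under 0.05, 4.65% of all tested genes were higher, and 1 gene of the list was, Mphosph8, a subunit of the HUSH silencing complex. It had 21.8, 28.4 and 20.2 FPKM in cKO libraries, against 18.99, 18.8 and 15.7 FPKM in WT libraries, a log2 difference of 0.37 (SE 0.15, limma adjusted p 0.401), and shares exon bases with a lincRNA. Trim28, named outside the rule as the KRAB co-repressor itself, had 147, 147 and 140 FPKM in cKO libraries, against 153, 142 and 150 FPKM in WT libraries. Its log2 difference was -0.04 (95% interval by limma -0.31 to 0.23), and its sign turned on the TPM scale (0.03), with quantile normalization (0.07) and after the length and G or C trends were taken out (0.18).

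Members that act on RNA or ribosomes numbered 9, of which 5 were above and 4 below 0, with a median of 0.11. Zfp598, a ubiquitin ligase that senses collided ribosomes, had 18.2, 13.0 and 14.9 FPKM in cKO libraries, against 17.9, 19.3 and 19.5 FPKM in WT libraries. Zfp622, a factor of large ribosomal subunit maturation, had 6.66, 6.67 and 5.93 FPKM in cKO libraries, against 9.90, 7.10 and 6.74 FPKM in WT libraries, just below the WT range. Among 9 tested partners of chromatin enzymes 5 were above and 4 below 0, with a median of 0.05. At an unadjusted p under 0.05, 2 were higher and 1 lower, beside 4.65% and 7.68% of all tested genes. The lower gene was Zfp219, described above. Zfp281 had 11.5, 12.4 and 13.3 FPKM in cKO libraries, against 7.97, 10.97 and 10.4 FPKM in WT libraries, and Zfp644, a partner of the methyltransferases G9a and GLP, had means of 7.54 ± 0.95 FPKM in cKO libraries and 5.97 ± 0.649 FPKM in WT libraries (SD, n = 3 each). The groups of both genes did not overlap. Zfp711, below the floor, had the lowest p of this list. It had 3.49, 4.91 and 5.04 FPKM in cKO libraries, against 3.11, 3.25 and 3.01 FPKM in WT libraries. The log2 differences of Zfp281, Zfp644 and Zfp711 were 0.33, 0.29 and 0.40 as deposited. With the length and G or C trends taken out they were 0.18, 0.02 and 0.18. Developmental regulators, 11 tested, had a median of 0.06 and included Zfp503 at the low end and Zfp148, a binder of GC-rich promoters, at the high end, with means of 13.0 ± 1.43 FPKM in cKO libraries and 10.3 ± 1.33 FPKM in WT libraries. The log2 difference of Zfp148 was 0.32 as deposited and 0.08 after the trends were taken out.

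Of the germ cell list 4 genes were tested, 2 above and 2 below 0. Zfp35, first found in meiotic cells of the mouse testis, had 9.17, 11.5 and 10.1 FPKM in cKO libraries, against 8.05, 9.45 and 8.23 FPKM in WT libraries, and the groups overlapped by 1 library each. Zfp37, expressed in testis and neurons, lay below the floor, with 4.44, 5.79 and 5.52 FPKM in cKO libraries, against 3.42, 3.57 and 4.16 FPKM in WT libraries. Zfp42 (Rex1), a marker of pluripotent cells, had a mean of 3.11 ± 0.57 FPKM in cKO libraries and 3.18 ± 0.636 FPKM in WT libraries (SD, n = 3 each). Zfp628, needed after meiosis in the mouse, had means of 6.49 ± 0.516 FPKM in cKO libraries and 7.51 ± 1.43 FPKM in WT libraries, with overlapping groups. As given above, 9 of 9 germ cell markers averaged higher in cKO, and their part in these values was not tested.

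Zinc finger genes with other names, at the same floor of 5 FPKM, had medians from 0.00 to 0.16, against 0.10 for the members and 0.00 for all tested genes. The 22 Zbtb genes, which carry a BTB domain in place of KRAB, had a median log2 difference of 0.11, the 5 Zkscan genes, which carry SCAN and KRAB domains, 0.16, the 5 Zscan genes 0.02 and the 13 Zc3h genes, which bind RNA through CCCH fingers, 0.00. None of the genes of these 4 families was called.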

How the data were processed

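Whole-testis RNA was measured in 3 cKO and 3 WT libraries, grouped by the genotype label. Trizol was used for extraction and a SMARTER kit for the libraries, per the labels' protocols. The authors deposited FPKM values per gene. Per the submitters' processing notes the builds were GRCm38 and mm10. The sources used here name no aligner, no counting tool and no strand setting. The table's positions were not used, and coordinates, transcripts and coding sequences are those of GENCODE M21 on GRCm38, matched by gene identifier.

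Read numbers were recovered: the product of FPKM and gene length, divided by the value of 1 read in that library, came out whole (tolerance 0.01) for 100% of values. Counting intervals from them would cover counting error only.

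All 14238 genes with a mean of at least 1 FPKM were fitted with limma 3.58.1 (R 4.3.3, mean-variance trend, log2(FPKM + 1), Benjamini-Hochberg adjustment, threshold 0.05). The procedure was also run on simulated data. Those data held larger changes than the members show and no length or G or C trends, so that run does not cover differences like those of the members. Fold changes on this scale understate those of low genes. The members and gene lists were chosen with earlier results of these data known. No test was made over the member list. The naming rule took Srsf2, up to 10 members per direction with the lowest p among those whose groups do not overlap, the 8 highest, the 3 on either side of the floor, up to 4 per gene list, and members in a run of neighbours with any of these.

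KRAB boxes and C2H2 fingers (C, 2 to 4 residues, C, 12 residues, H, 3 to 5 residues, H) were found by pattern in translated GENCODE coding sequences, in place of the RefSeq proteins first planned. Transcript G or C content is that of the longest annotated transcript. Trends on log length and G or C content were natural splines with 5 degrees of freedom. Other alternatives were pseudocounts, filters, scalings, limma voom on the recovered reads, a replicate block and each library left out.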

Additional observations from a re-analysis of the deposited data

How the results depend on the processing

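Of 77 named genes, 61 kept the sign of their log2 difference in all 19 alternative settings, and 0 passed the adjusted threshold in any of them. No member was called under any alternative. On the TPM scale 4 members were lower at an unadjusted p under 0.05, beside 4.55% of all tested genes. In 32 members every cKO library was above and in 8 below every WT library, and the all-gene shares of such separation on that scale are not given here. The median of all tested genes also moved up on the TPM scale, to 0.07 from 0.00. With length and G or C trends removed, 2 members were higher at that p, beside 3.08% of all tested genes without the replicate block and 3.89% with it. With or without the block, 8 members lay above in every cKO library, beside 6.14% of all tested genes, and the median of the members was 0.0148. Members numbered 217 at a floor of 3 FPKM and 56 at 10 FPKM, where the median was 0.00121. Leaving out single libraries gave 3 to 28 members higher and 4 to 17 lower at that p, with 0 called. The shares of all tested genes at that p then ran from 1.65% to 7.43% higher and from 3.35% to 10.3% lower. Medians of the members ran from -0.0327 to 0.107, below 0 only without WT replicate 1. Every cKO library lay above every WT library in 21 to 50 members and below in 14 to 35. Any gene separates more easily with fewer libraries in a group, so these separation counts cannot be set beside those of all 6 libraries. A count test on the recovered reads (limma voom) called 1 gene higher and 0 lower of 17780.

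Signs turned as follows, and the cause was not tested. With the trends removed, with and without the block, Zfp771 was at 0.199, Trim28 at 0.183, Zfp628 at 0.117, Zfp580 at 0.0208, Zfp24 at -0.00324, Zfp445 at -0.0036, Zfp706 at -0.0289, Zfp871 at -0.0321, Zfp383 at -0.0415, Zfp422 at -0.0416 and Zfp933 at -0.136. On the TPM scale Zfp146 was at 0.0532, Zfp646 at 0.0087, Zfp41 at 0.0491, Zfp42 at 0.0306 and Trim28 at 0.0256. With quantile normalization Zfp146 was at 0.0693 and Trim28 at 0.0662, and with voom Zfp146 was at 0.0134 and Zfp41 at 0.0116. Leaving out single libraries gave -0.0557 to 0.0326 for Zfp146, -0.0605 to 0.154 for Zfp383, -0.0655 to 0.297 for Zfp445, -0.258 to 0.0614 for Zfp646, -0.111 to 0.0452 for Zfp41, -0.023 to 0.201 for Zfp790, -0.0649 to 0.126 for Zfp933 and -0.12 to 0.1004 for Zfp42.

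The labels name no pairing by replicate number. Same-numbered cKO and WT deviations correlated at 0.095, -0.331 and 0.393, and not every library correlated best with its own number. With 3 libraries a group, these correlations cannot settle whether samples were paired. A replicate block gave 13 members higher and 9 lower at an unadjusted p under 0.05, beside 4.54% and 7.19% of all tested genes, and called 0 genes. With 3 libraries a group and a median SE of 0.14, small differences were not detectable here.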
